A study of Mus musculus with 17 samples.

Results

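Chromatin accessibility was compared between Dnmt3-deficient (KO) and Dnmt3-sufficient (C) germinal center B cells (GCB) across all deposited ATAC-seq regions outside a window of chromosome 7 around the Olfr630 and Trim34a genes (mm9), which holds the strongest genotype differences of these cells and is not described here. The members were the 6 GCB libraries, taken by their labels (4 KO, named F1, F2, F3 and M1, and 2 C, named F2 and M1), of 16 libraries with values in the series. The window held 35 of the 66177 regions, and the other 66142 are described here. All mice carried floxed alleles of Dnmt3a and Dnmt3b on a B6;129S4 background. KO mice were Dnmt3a fl/fl Dnmt3b fl/fl with 1 copy of a Cre allele expressed in B cells. C mice were littermates with the same 4 floxed alleles and no Cre, and all were 8 to 12 weeks old at the start. Both genotypes received phycoerythrin (PE) in complete Freund's adjuvant, and 30 days later B220+ PE+ GL7+ Fas+ cells were sorted from draining lymph nodes, with 2 mice pooled per library. The F libraries came from females and the M1 libraries from males, so that 3 of 4 KO and 1 of 2 C libraries were female. Beside them stood naive follicular B cells (nB, B220+ Fas- GL7-; 3 C and 2 KO libraries, all male) from lymph nodes of mice that were not immunized, and CD138+ plasma cells from bone marrow (BMPC; 3 C and 2 KO libraries, all female) of immunized mice. Between nB and BMPC cell type thus cannot be told apart from sex, whereas GCB held both sexes. Between nB and the other cells it cannot be told apart from immunization. The Cre allele lies on chromosome 7 and recombines from the pre-B cell stage, before the germinal center. C mice lacked this allele, so effects of Dnmt3 loss cannot be told apart from effects of the Cre allele or of the haplotype linked to it.

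Dnmt3a and Dnmt3b place new methyl groups on cytosines of CpG dinucleotides. Germinal centers are the lymph node sites where activated B cells divide, mutate their antibody genes and are selected before they become memory or plasma cells. Tn5 transposase cuts nucleosome-poor DNA, so ATAC-seq reads collect at open promoters and enhancers. Methylated CpG-poor enhancers are commonly closed, and loss of methylation can accompany their opening. In bulk ATAC-seq a weaker signal may come from fewer cells with an open region or from a less open region in each cell, and these cannot be told apart.

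The central 200 bases of 5 regions are shown because they hold from 1 to 10 CpGs, the substrate of the deleted enzymes, at regions described below. The first 4 belong to regions called higher in KO GCB and the last to the lower shift with the smallest p among regions of at least 5 RPPM (defined below). All are the plus strand of mm9, 5′ to 3′, and capitals mark CpG dinucleotides.
Klf13, chr7:70947829-70948028: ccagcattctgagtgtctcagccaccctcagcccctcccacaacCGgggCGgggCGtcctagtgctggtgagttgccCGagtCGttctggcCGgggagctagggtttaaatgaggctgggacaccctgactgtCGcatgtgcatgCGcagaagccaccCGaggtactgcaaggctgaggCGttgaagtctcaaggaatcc
Camkk2, chr5:123204679-123204878: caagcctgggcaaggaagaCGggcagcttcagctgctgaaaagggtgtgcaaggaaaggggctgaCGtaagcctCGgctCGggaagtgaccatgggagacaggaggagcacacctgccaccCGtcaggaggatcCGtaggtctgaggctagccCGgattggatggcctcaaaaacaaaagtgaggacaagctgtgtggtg
AW112010, chr19:11124804-11125003: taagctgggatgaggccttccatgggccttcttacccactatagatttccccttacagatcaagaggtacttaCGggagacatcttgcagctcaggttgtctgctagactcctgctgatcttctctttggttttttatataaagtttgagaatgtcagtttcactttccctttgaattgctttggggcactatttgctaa
Xrcc6, chr15:81858019-81858218: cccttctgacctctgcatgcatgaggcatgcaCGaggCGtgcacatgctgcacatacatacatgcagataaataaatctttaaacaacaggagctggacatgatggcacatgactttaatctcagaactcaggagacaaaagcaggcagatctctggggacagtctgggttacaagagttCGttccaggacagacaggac
Tcf7l2, chr19:55843421-55843620: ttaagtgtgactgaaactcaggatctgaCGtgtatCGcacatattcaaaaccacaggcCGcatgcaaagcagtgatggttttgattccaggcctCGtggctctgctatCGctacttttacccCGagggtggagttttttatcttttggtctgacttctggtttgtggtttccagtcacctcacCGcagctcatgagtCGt
The Klf13 stretch holds 10 CpGs, the Camkk2 stretch 7 and the Tcf7l2 stretch 8, against 3 in Xrcc6 and 1 in AW112010.

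Depth differed between libraries. Reads in regions numbered 2273600 (C F2) and 2134829 (C M1), against 907959 (KO F1), 1571145 (KO F2), 2280954 (KO F3) and 1430371 (KO M1). Values are reads scaled to a fixed total of reads in peaks (RPPM), so that 1 read was worth 0.438 RPPM in KO F3 and 1.101 RPPM in KO F1. Mitochondrial regions took 8.60% and 8.76% of the reads in C and 9.43%, 9.75%, 7.43% and 10.1% in KO. Promoters took 44.6% and 47.8% in C and 43.6%, 44.3%, 46.5% and 44.0% in KO. Neither share separated the genotypes, and KO F3, the deepest KO library, lay nearest to the C libraries in promoter share and farthest from the other KO libraries in mitochondrial share. Spearman's rho between pairs of GCB libraries over all regions was 0.922 for the C pair and from 0.862 to 0.914 among the KO libraries, and it was lowest in pairs with the shallow KO F1 library.

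The defining genes of GCB were checked against nB and went in both directions. The promoter of Gcsam, a germinal center signaling protein, stood at 20.95 ± 6.45 RPPM in C GCB (SD, n = 2) and 0.580 RPPM in C naive B cells (nB, n = 3). Conversely the promoter of Ccr7, a lymph node homing receptor, stood at 15.3 RPPM in C GCB against 60.0 RPPM in C nB. The Bcl6 promoter, of the repressor that defines germinal centers, went the other way, at 20.01 RPPM in C GCB against 53.8 RPPM in C nB. By limma with Benjamini-Hochberg adjustment, 3 of 26 genes of a germinal center list opened and 2 closed between C nB and C GCB, and of 19 naive B cell genes 6 closed and 0 opened. Over all 66177 regions 9427 opened and 5602 closed, a share near that of the germinal center list. Markers of other cells were not absent. Nearest-start regions of 10 T cell genes summed to 142 and 154 RPPM in C and 169, 154, 169 and 152 RPPM in KO, with most of it at Cd2, which B cells also express, and with Cd3e at 0.660 ± 0.933 RPPM in C and 1.17 ± 0.804 RPPM in KO (SD, n = 2 and 4). Some T cell genes were more accessible in C GCB than in C nB, with Cd4 at 11.3 against 0.867 RPPM and Cd247 at 11.2 against 1.85 RPPM. Others were less accessible, with Cd3d at 13.7 against 62.3 RPPM and Lat at 9.29 against 20.7 RPPM. Among NK, dendritic and myeloid genes, Eomes stood at 11.3 against 1.83 RPPM, Flt3 at 54.0 against 18.2 RPPM and Csf3r at 43.9 against 20.98 RPPM. Itgam, a myeloid integrin gene, stood at 1.13 against 4.04 RPPM. These 8 differences between C GCB and C nB passed the limma threshold, and in all 2 of 10 T cell genes were called above and 3 below nB, 2 and 1 of 12 myeloid, 2 and 0 of 7 dendritic, 2 and 0 of 5 NK and 1 and 0 of 7 stromal genes. The sums over 12 myeloid genes were 147 and 142 RPPM in C and 140, 153, 156 and 145 RPPM in KO, with Cebpb and Csf3r the most accessible. Sums for dendritic (7 genes), NK (5 genes) and stromal (7 genes) markers also overlapped between genotypes, and no nearest-start region of these 5 lists was called. Their median log2 differences were above the -0.039 of all promoters, at 0.17 for T cell (7 of 10 genes higher in KO), 0.17 for myeloid (7 of 12), 0.15 for dendritic (5 of 7), 0.20 for NK (3 of 5) and 0.27 for stromal genes (5 of 7). Of these 41 regions 23 were promoters, and many were weaker than promoters in general. Over all regions of 2 to 5 and of 5 to 10 RPPM the median was 0.13 and 0.086, so medians of this sign were not particular to these lists. The study's staining panels also held antibodies to CD11b, CD11c, CD90.2 and Ly6-G, described as removing auto-fluorescent cells. The part of other cells in the results was not tested.

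At the deleted genes no difference passed the test. The Dnmt3a promoter stood at 15.4 and 17.3 RPPM in C and 19.8, 15.3, 18.4 and 10.5 RPPM in KO. The Dnmt3b promoter stood at 25.1 and 28.1 RPPM in C and 35.2, 22.9, 24.99 and 19.6 RPPM in KO. The groups overlapped at each gene, with log2 differences of -0.06 ± 0.20 and -0.08 ± 0.16 (standard error) and limma adjusted p of 0.93 and 0.89. Accessibility at a promoter does not report deletion of the catalytic exons, so these values check no label.

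Outside the window, 19 of 66142 regions (0.0287%) were called higher in KO GCB and 0 (0%) lower by limma on log2(RPPM + 1) (adjusted p no higher than 0.01, change 2-fold or more). Without adjustment, p was under 0.05 at 4913 regions higher (7.43%) and 2870 lower (4.34%). All 19 had every KO library above every C library. Their log2 differences ran from 1.06 to 2.41 with a median of 1.81, against a median of 0.032 over all regions. The regions were chosen by this difference in these same libraries. Its size and the separation of the groups therefore follow from the choice and are no further support. Such differences on the log2(RPPM + 1) scale understate the change of weak regions. The count rested on the tool: on recovered reads, edgeR's quasi-likelihood test called 0 in either direction, with unadjusted p under 0.05 at 2525 higher and 1529 lower, DESeq2 called 0 (1238 higher and 1946 lower without adjustment), voom called 0 and edgeR's likelihood ratio test called 10 higher and 1 lower. A limma fit of the 6 GCB libraries alone called 1, the Klf13 region. Without C M1 the pooled fit called 0 of the 19, and without C F2 5 of them. The pooled fit assumes 1 spread for all cell types, whereas the median standard deviation within groups was 0.375 in GCB, 0.210 in nB and 0.208 in BMPC (log2 scale, all regions), so that it understates the spread of the GCB libraries.

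**Figure D1:**
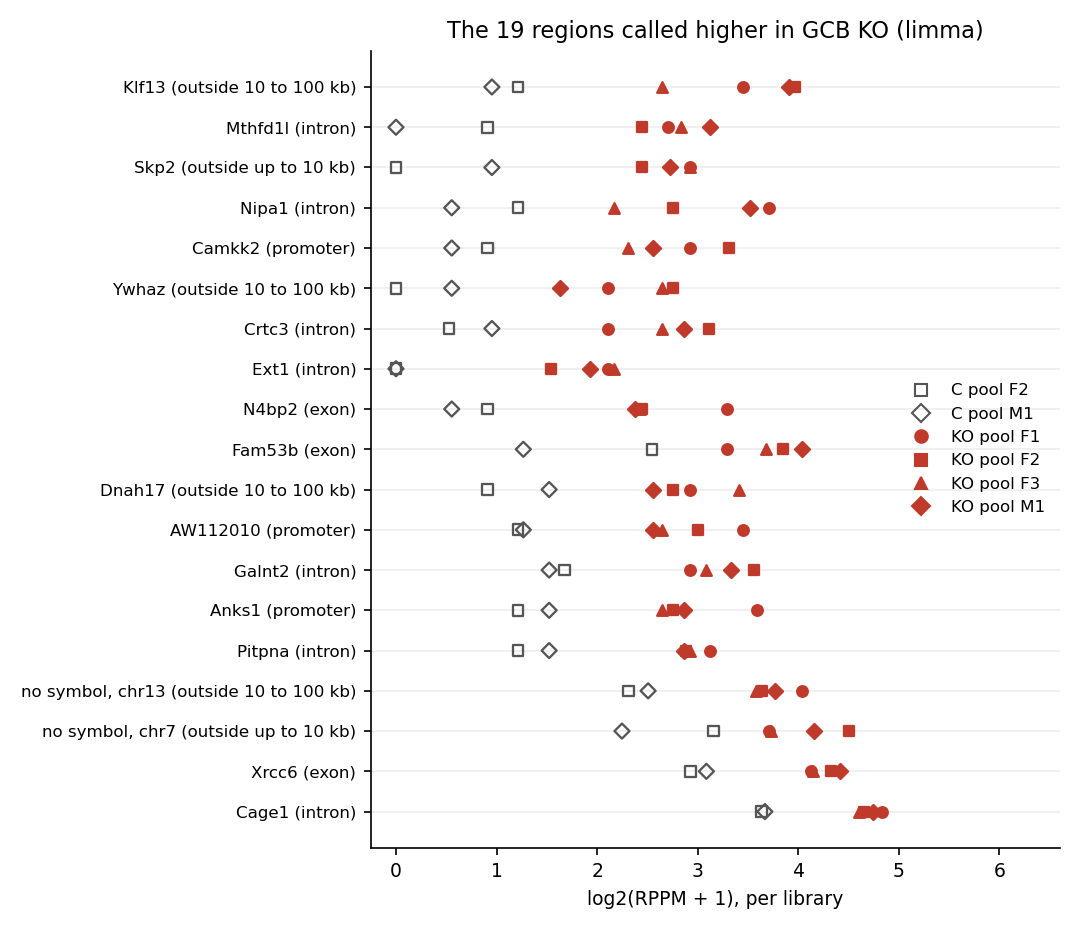
Accessibility of the 19 called regions in each GCB library, as log2(RPPM + 1) on the x axis, with 1 row per region labelled by gene and annotation class, open grey symbols for the 2 C libraries and filled red symbols for the 4 KO libraries. In every row the KO symbols lie to the right of both C symbols, and the C symbols lie under 2 in most rows.

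These regions had few reads in C. The summed reads of both C libraries had a median of 6 (range 0 to 51), and at 14 of 19 regions at least 1 C library held 3 reads or fewer. On the log2(RPPM + 1) scale the largest difference was at a 646 bp region outside genes, chr7:70947607-70948252. This region is nearest to Otud7a and 121503 bp from the start of Klf13, which encodes a zinc finger transcription factor. It held 3 and 2 reads in C and 9, 23, 12 and 20 in KO, or 1.32 and 0.937 RPPM against 9.91, 14.6, 5.26 and 14.0 RPPM. Every KO library exceeded both C libraries, with a log2 difference of 2.41 ± 0.32 (standard error, limma adjusted p = 0.0018) and a quasi-likelihood adjusted p of 0.11. In C nB and C plasma cells from bone marrow (BMPC) this region stood at 9.90 and 15.1 RPPM, so that the C GCB were the low group.

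Counting error weighs least on the called regions with most reads, but the spread between libraries remains. An intron of Cage1 (chr13:38101737-38102908, 15677 bp from the start of Ssr1, a subunit of the translocon-associated complex) held 26 and 25 reads in C and 25, 38, 53 and 37 in KO. Its levels were 11.4 and 11.7 RPPM in C and 27.5, 24.2, 23.2 and 25.9 RPPM in KO. The C libraries lay within 1 RPPM of each other, and the difference was 1.06 ± 0.16 (adjusted p = 0.0056, and 0.13 by the quasi-likelihood test). An exon of Xrcc6, which encodes the Ku70 protein of DNA end joining (chr15:81857450-81858788), stood at 6.597 and 7.49 RPPM in C and 16.5, 19.1, 16.7 and 20.3 RPPM in KO. Its difference of 1.25 ± 0.18 (adjusted p = 0.0039) had the smallest quasi-likelihood adjusted p of the 19, at 0.093. A pair of regions had no symbol, at chr13:112711256-112712146 and chr7:113787705-113788793. The first stood at 3.96 and 4.68 RPPM in C and 15.4, 11.5, 10.96 and 12.6 RPPM in KO, and the second at 7.92 and 3.75 RPPM in C and 12.1, 21.6, 12.3 and 16.8 RPPM in KO. In the second the C libraries lay apart. The log2 difference there was 1.32 in the main fit, 0.87 without C M1 and 1.78 without C F2.

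By the authors' annotation, 3 of the 19 regions were promoters, 3 exons, 7 introns and 6 outside genes. The promoter region of Camkk2, a calcium-dependent kinase that activates AMPK (chr5:123204466-123205093), stood at 0.880 and 0.468 RPPM in C and 6.61, 8.91, 3.95 and 4.89 RPPM in KO, which is 2 and 1 reads against 6, 14, 9 and 7. The promoter of AW112010, an interferon-responsive transcript of immune cells (chr19:11124612-11125196), stood at 1.32 and 1.41 RPPM in C and 9.91, 7.001, 5.26 and 4.89 RPPM in KO, from 3 reads in each C library. The third promoter was that of Anks1, an adaptor protein gene, at 1.32 and 1.87 RPPM against 11.01, 5.73, 5.26 and 6.29 RPPM. In a second gene annotation (GENCODE) only the AW112010 region lay at the start of its gene. The Camkk2 region lay 24298 bp from the Camkk2 start there. The Anks1 region lay within Anks1, 72861 bp from the nearest start of a coding gene, Tcp11. In all 3 promoters the lowest KO library was above both C libraries, and each C value rested on 4 reads or fewer. The exon regions of Fam53b (chr7:139905104-139905615) and N4bp2 (chr5:66181842-66182628) had means of 12.3 ± 2.77 and 5.46 ± 2.24 RPPM in KO (SD, n = 4) against 3.12 ± 2.43 and 0.674 ± 0.291 RPPM in C (SD, n = 2). The Fam53b log2 difference of 1.81 was 1.17 without C M1 and 2.45 without C F2. Introns of Crtc3, which encodes a CREB coactivator, of Mthfd1l, a mitochondrial folate enzyme, of Nipa1, Ext1, Galnt2 and Pitpna, and regions nearest to the starts of Skp2, Ywhaz and Dnah17 made up the rest. The regions named for Skp2, Ywhaz and Dnah17 lay 42951, 85025 and 17178 bp from those starts. The first was nearest to the gene Lmbrd2, and by GENCODE the second overlapped Gm10384 and the third Cyth1. In Ext1, whose product builds heparan sulfate chains, both C libraries held 0 reads and the KO libraries 3, 3, 8 and 4, where 3 reads in a library of C depth come to 1.32 or 1.41 RPPM.

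Chromosome 7 outside the window held 5 of the 19 regions, against 5.97% of all regions, and chromosome 15 held 4 against 4.15%. The consistent shifts defined below were less concentrated, with 1.52% of chromosome 7 regions shifted higher against 1.26% of all regions and a higher share on chromosomes 17 and 19 (1.57% on the latter). An excess was thus not particular to chromosome 7. The Klf13, Nipa1 and Crtc3 regions lie before the window, and Fam53b and the region without a symbol lie beyond it.

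The nB and BMPC libraries entered the spread of the fit that called the 19, but not the GCB difference itself. In BMPC (2 KO, 3 C) 16 of 19 were higher in KO, against 54.2% of all regions higher. Fam53b was called there (0.953 RPPM in C and 5.34 RPPM in KO, log2 difference 1.69, limma adjusted p = 0.0092). Over all 66142 regions, 60 were called higher in KO BMPC. Camkk2 (1.46 against 8.08 RPPM, adjusted p = 0.010) and Crtc3 (1.27 against 5.995 RPPM, adjusted p = 0.018) fell just short of that threshold. In nB (2 KO, 3 C), 12 of 19 were higher in KO, against 47.4% of all regions. The median difference at the 19 was 0.78 in BMPC and 0.13 in nB (log2 scale), beside 0.028 and -0.013 over all regions. The interaction of genotype with cell type was called at no region between GCB and nB or between GCB and BMPC by limma. Unadjusted interaction p was under 0.05 at 2740 regions higher and 1363 lower in GCB relative to nB, and at 2439 and 3060 relative to BMPC. With edgeR's likelihood ratio test the interaction was called at 0 and 1 regions against nB and at 15 and 67 against BMPC. The genotype effect in GCB was thus not shown to differ from that in nB or BMPC by the limma test.

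A consistent shift was set as every KO library beyond every C library with a mean difference of at least 1 on the log2(RPPM + 1) scale. Higher shifts numbered 831 (1.26% of regions) and lower shifts 168 (0.254%). Regardless of size, every KO library lay above both C libraries at 4929 regions (7.45%) and below both at 3651 (5.52%). There are 15 arrangements of 4 against 2 libraries. Exchangeable libraries without ties would thus give either order at 1 region in 15, so such separation alone does not mark a genotype effect. Higher shifts thus outnumbered lower shifts by a larger ratio at 2-fold than without the size limit, and after quantile normalization the 2-fold shifts numbered 605 higher and 449 lower. Just inside the size limit lay an intron region of Pde6a at 3.96 and 2.81 RPPM in C and 8.81, 9.55, 6.58 and 6.29 RPPM in KO, and just outside an intron region of Inadl at 0.440 and 0 RPPM in C and 1.101, 1.91, 2.19 and 0.699 RPPM in KO. Shifted regions were weak, with a median of 3.39 RPPM over the 6 libraries for higher and 2.35 RPPM for lower shifts against 6.30 RPPM over all regions. Among higher shifts, both C libraries held 3 reads or fewer at 392 of 831. With a mean of at least 5 RPPM, 201 higher and 29 lower shifts were left, and with at least 10 RPPM 28 and 4.

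**Figure D2:**
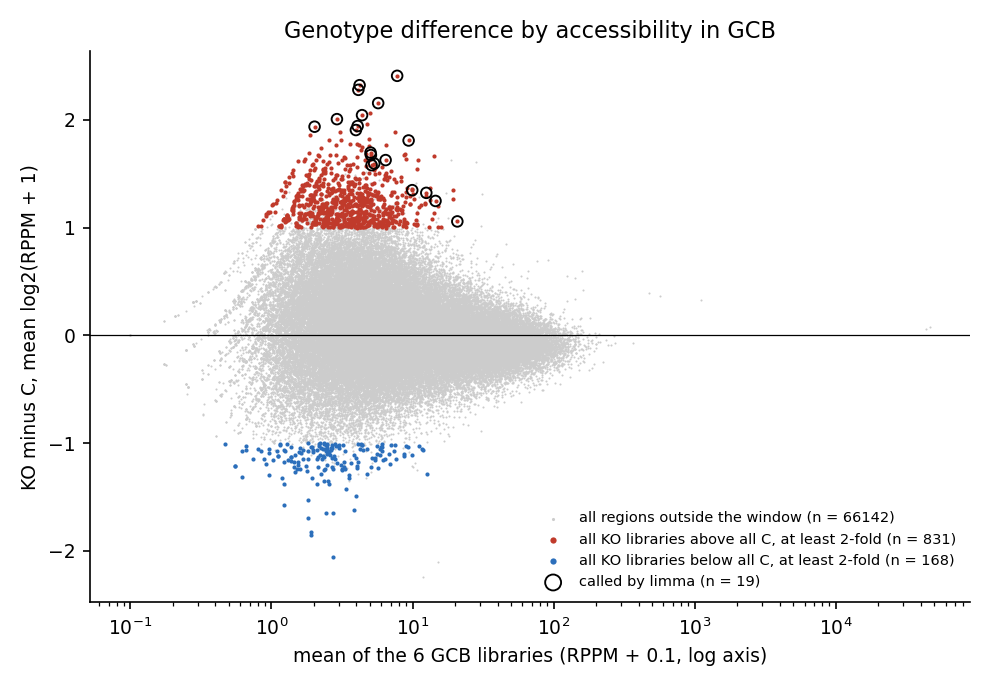
Genotype difference of each of the 66142 regions (KO minus C, mean log2(RPPM + 1), y axis) against its mean over the 6 GCB libraries (x axis, RPPM + 0.1 on a log scale), with higher shifts in red, lower shifts in blue and the 19 called regions circled. The 831 red and 168 blue points sit mostly between 1 and 10 RPPM, and the spread narrows toward accessible regions.

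Among the most accessible higher shifts, besides Cage1 and Xrcc6, was an intron of Tex2 (chr11:106425449-106426068) at 15.8 and 5.15 RPPM in C and 19.8, 21.004, 24.99 and 29.4 RPPM in KO. The C libraries lay far apart there, and the adjusted p was 0.072. An exon of Rnf150 (chr8:85613327-85614643) stood at 13.2 and 5.62 RPPM in C and 24.2, 22.3, 30.7 and 18.9 RPPM in KO (adjusted p = 0.020 by limma, 0.0036 by the likelihood ratio test and 0.098 by the quasi-likelihood test). A second intron region of Crtc3 (chr7:87773463-87774353) stood at 8.36 and 6.56 RPPM in C and 27.5, 15.3, 18.9 and 14.0 RPPM in KO. Crtc3 and Camkk2 each held 3 higher shifts, of 12 and 9 regions, and the genes with most were Tns3, an adhesion protein gene (5 of 30 regions), and Foxp1, a B cell transcription factor gene (5 of 98 regions).

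The 5 lower shifts with the smallest p among regions of at least 5 RPPM did not pass the limma threshold. An intron of Tcf7l2, which encodes a Wnt-pathway transcription factor (chr19:55843205-55843837), stood at 14.1 and 20.6 RPPM in C and 8.81, 7.64, 6.14 and 9.09 RPPM in KO. Its difference was -1.03 ± 0.21 (standard error, adjusted p = 0.040, and 0.31 by the quasi-likelihood test). An intron of Zfp944, a zinc finger gene, stood at 10.1 and 10.8 RPPM in C and 3.30, 4.46, 4.82 and 4.19 RPPM in KO. A region 39472 bp from the start of Neb, a muscle filament gene, stood at 20.7 and 15.9 RPPM in C and 7.71, 8.27, 9.21 and 7.69 RPPM in KO. The others were an exon region near Cmip, at 9.24 and 14.1 RPPM in C and 4.41, 7.001, 5.26 and 3.50 RPPM in KO, and a region of chromosome 7 without a symbol, at 18.9 and 23.0 RPPM in C and 7.71, 5.73, 14.0 and 6.29 RPPM in KO. Adjusted p for the last 4 ran from 0.042 to 0.080. The 1 region called lower by the likelihood ratio test was a 5′ end of Plekhg5, at 8.80 and 3.75 RPPM in C and 0, 0.636, 0.438 and 2.10 RPPM in KO, from 20 and 8 reads against 0, 1, 1 and 3.

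By annotation, higher shifts lay mostly outside promoters. Promoters made up 21.7% of regions but 6.38% of higher shifts (53 of 831) and 9.52% of lower shifts (16 of 168). Introns made up 35.5% of regions, 47.3% of higher shifts (393) and 40.5% of lower shifts (68). Regions outside genes made up 35.1% of regions, 37.4% of higher shifts (311) and 41.7% of lower shifts (70). Exons, which here include 3′ UTRs, held 64 higher and 10 lower shifts, and 5′ UTRs 10 and 4. As a share of its own class, 1.67% of introns, 1.44% of exons and 1.34% of regions outside genes were shifted higher against 0.370% of promoters, and 0.290%, 0.226%, 0.301% and 0.112% lower. Classes differed in strength, with a median of 24.6 RPPM in promoters and 4.82 RPPM in introns. Within the band of 5 to 10 RPPM, 0.922% of 1736 promoters and 1.19% of 13216 other regions were shifted higher, and within 2 to 5 RPPM 1.89% and 2.59%. For lower shifts the order turned in both bands. At 5 to 10 RPPM 0.230% of promoters (4 regions) and 0.159% of other regions were shifted lower. At 2 to 5 RPPM the shares were 0.653% (9 regions) and 0.410%. From 10 to 20 RPPM, 0.161% of 2480 promoters and 0.298% of 7724 other regions were shifted higher, and 0% and 0.0518% lower. The gap in higher shifts was thus smaller among regions of like strength. The promoter deficit of lower shifts was absent from 2 to 10 RPPM but present from 10 to 20 RPPM, where few regions shifted lower.

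Direction varied with accessibility. In the weakest regions, under 1 RPPM, all KO libraries lay above all C at 3.93% and below at 5.30%. Regions with a mean under 20 RPPM had all KO libraries above all C at 8.35% and below at 4.32%. Regions of at least 20 RPPM had the reverse, 3.91% above and 10.2% below, with a median difference of -0.063 on the log2 scale. In the 50 RPPM and over bin, 78.0% of which were promoters, 2.70% lay above and 10.7% below. The difference of sign held for TMM-scaled values, at 8.16% above and 5.12% below under 20 RPPM and 2.16% and 13.1% at or over it. It was gone after quantile normalization, which gives all libraries the same distribution of values, at 6.25% and 6.35% under 20 RPPM and 6.54% and 6.98% at or over it. The cause of the tilt was not tested.

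**Figure D3:**
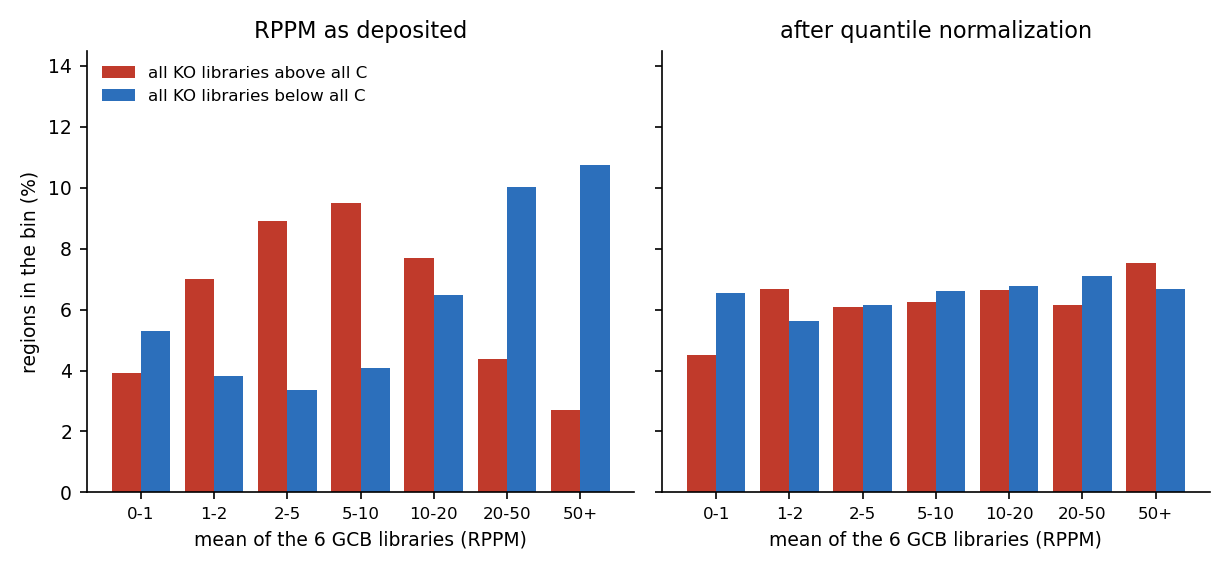
Share of regions in each bin of mean accessibility (x axis, RPPM over the 6 GCB libraries) at which all 4 KO libraries lay above both C libraries (red) or below both (blue), in percent of the bin's regions on the y axis, for the deposited values (left) and after quantile normalization (right). On the left blue exceeds red under 1 RPPM, red exceeds blue from 1 to 20 RPPM and blue exceeds red from 20 RPPM, while on the right the bars are nearly level, except in the weakest bin.

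Mean accessibility per class was also compared between libraries. Over introns the mean log2(RPPM + 1) was 2.64 (C F2) and 2.45 (C M1) against 2.65, 2.66, 2.59 and 2.62 in KO. The C F2 library lay within the KO range, and the C M1 library below all others. The same order held in exons (2.82 and 2.65 against 2.85, 2.85, 2.77 and 2.79) and more than 100 kb from genes (2.42 and 2.23 against 2.48, 2.44, 2.41 and 2.40). Promoters were level, at 4.41 and 4.42 in C and 4.39, 4.41, 4.42 and 4.37 in KO. KO minus C differences were -0.019 in promoters, 0.0077 in 5′ UTRs, 0.081 in exons, 0.089 in introns, and 0.070, 0.0998 and 0.11 outside genes, by distance to the nearest transcript edge, at up to 10 kb, 10 to 100 kb and over 100 kb. None differed by an exact two-sided permutation test of 4 against 2 libraries (p = 0.4 in 6 classes and 0.93 in 5′ UTRs, adjusted over 7 classes 0.47 and 0.93), a design whose smallest p is 0.13. Without C M1 the differences in exons, introns and 10 to 100 kb from genes were -0.0045, -0.0042 and -0.0036, so the tilt of these classes rested on that library. Over 100 kb from genes the difference was 0.014 without C M1 and 0.20 without C F2, and in promoters it ran from -0.028 to -0.0088 with 1 library left out.

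**Figure D4:**
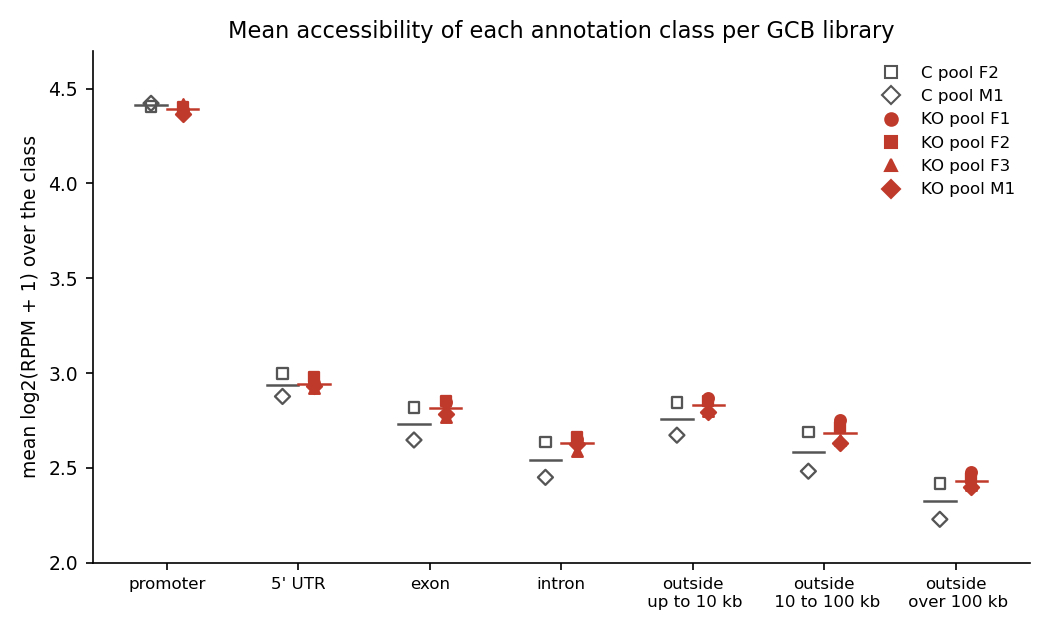
Mean log2(RPPM + 1) over all regions of each annotation class outside the window (y axis, starting at 2) in each GCB library, with open grey symbols for C, filled red symbols for KO and horizontal lines at the group means. In every class but promoters the C M1 library is the lowest, and in exons, introns and regions over 100 kb from genes C F2 lies within the KO range.

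Regions gained in KO plasma cells, taken as a set, also had a higher mean in every KO GCB library. They were chosen by the difference between KO and C BMPC, with a spread estimated over all 16 libraries, GCB included. Outside the window limma called 60 higher in KO, and the likelihood ratio test of edgeR 1633. At the 60, the mean log2(RPPM + 1) in GCB was 3.08 and 3.02 in C and 3.35, 3.34, 3.38 and 3.32 in KO, so that every KO library lay above both C libraries. The difference was 0.30, against 0.064 over all regions, with an exact permutation p of 0.13, the smallest that 4 against 2 allows. At the 1633, the means were 2.07 and 1.92 in C and 2.28, 2.28, 2.15 and 2.21 in KO, a difference of 0.23. By direction alone, 37 of the 60 (61.7%) and 1102 of the 1633 (67.5%) were higher in KO GCB, beside 53.8% of all regions. The other 23 and 531 were lower. In single regions, 30.0% of the 60 and 15.1% of the 1633 had all KO GCB libraries above all C, beside 7.45% of all regions, and 8.33% and 2.69% had all below, beside 5.52%. The 1633 were weak in GCB (median 3.04 RPPM), yet between 5 and 10 RPPM 21.8% of 330 lay above and 1.52% below, against 9.49% and 4.08% of all regions in that band. In the weaker band of 1 to 2 RPPM the shares were 9.25% and 3.08%, against 7.01% and 3.82% of all. From 2 to 5 RPPM they were 17.4% and 1.35%, against 8.91% and 3.36%, and from 10 to 20 RPPM 16.4% and 3.95%, against 7.70% and 6.49%. Of the 57 from 20 to 50 RPPM, 5.26% lay above and 8.77% below, near the 4.38% and 10.03% of all. Both differences kept their sign with each library left out (0.27 to 0.32 and 0.16 to 0.31), without chromosome 7 (0.27 and 0.23) and after quantile normalization (0.26 and 0.16).

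**Figure D5:**
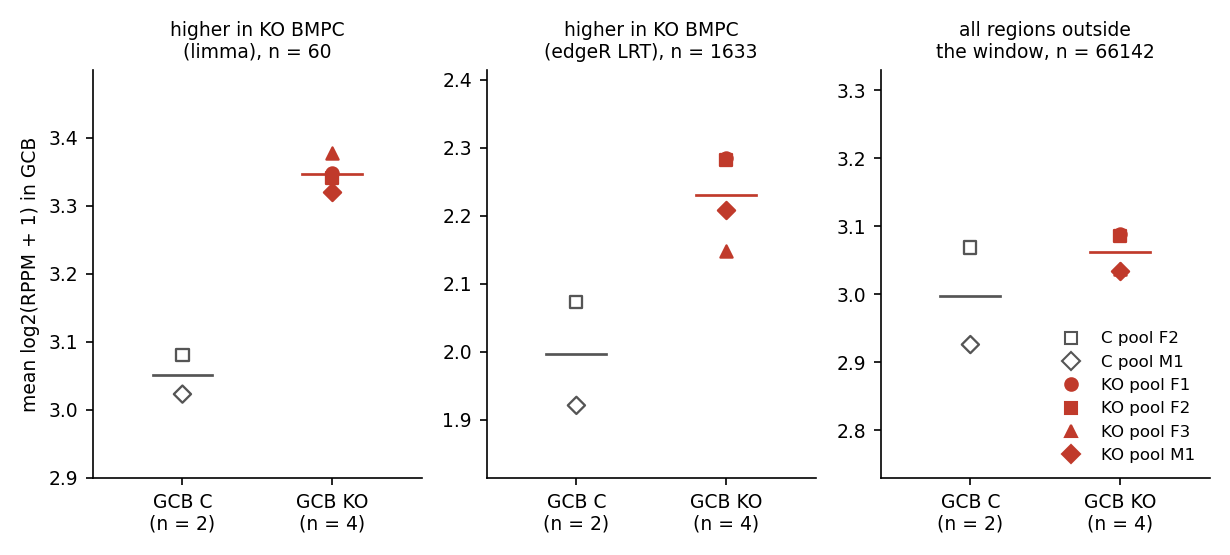
Mean log2(RPPM + 1) in each GCB library (y axis, each panel spanning 0.6 units) over the 60 regions called higher in KO BMPC by limma, the 1633 called with the likelihood ratio test of edgeR and all 66142 regions, with horizontal lines at group means and KO F3 hidden behind KO M1 in the last panel. In the first 2 panels the 4 KO libraries lie above both C libraries, while over all regions C F2 lies within the KO range.

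Of the 5 largest increases in BMPC, 1 had groups that did not overlap in GCB, with KO above C, as 7.45% of all regions had. The largest increase in BMPC was 15823 bp from the start of S100z (chr13:96264434-96265443), at 0.910, 0.365 and 0.156 RPPM in C and 22.2 and 25.4 RPPM in KO BMPC. In GCB the same region stood at 8.80 and 2.81 RPPM in C and 1.101, 0.636, 5.26 and 6.99 RPPM in KO, and the groups overlapped. An intron region of Sept9, a cytoskeletal GTPase gene, rose in BMPC from a mean of 2.16 to 16.5 RPPM, and stood at 1.32 and 2.34 RPPM in C GCB and 4.41, 7.64, 3.07 and 4.19 RPPM in KO GCB. There the GCB groups did not overlap, with a log2 difference of 1.01 and an adjusted p of 0.18. The regions near F2rl1, Cep250 and Npas3, the other 3 of the 5 largest, overlapped between genotypes in GCB. The 9 regions called lower in KO BMPC had a mean in GCB of 4.68 and 4.55 in C and 4.33, 4.42, 4.45 and 4.27 in KO, all KO libraries below both C libraries. The 242 called lower by the likelihood ratio test had overlapping means in GCB (2.80 and 2.71 in C, 2.75, 2.80, 2.67 and 2.74 in KO). Regions that closed between C nB and C BMPC (13320) had a mean in GCB of 2.86 and 2.72 in C and 2.91, 2.88, 2.91 and 2.87 in KO, and those that opened (11896) had 2.55 and 2.37 against 2.57, 2.60, 2.44 and 2.53. The KO libraries lay above both C libraries in the first set only, and the difference between the sets was not tested.

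The reverse also held in direction: of the 831 higher GCB shifts, 70.3% were higher in KO BMPC and 53.5% in KO nB, against 54.2% and 47.4% of all regions. Of the 201 with a mean of at least 5 RPPM, 75.1% and 62.7% were higher. Of the 168 lower shifts, 54.2% and 38.7% were higher in KO. The share of all regions of 2 to 5 RPPM higher in KO BMPC was 59.7%, so regions of like strength were also more often higher.

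In base composition, shifted regions lay close to others. Non-promoter higher shifts had a median of 1.23 CpGs per 100 bp and 48.3% GC, and lower shifts 1.08 and 45.5%, against 1.21 and 47.3% over all regions outside promoters. Motif letters were searched on both strands, and no motif contains another. GGAAGT (the ETS factor PU.1) was in 39.8% of higher and 29.8% of lower shifts against 43.2% of all regions, and CAGCTG (E2A) in 29.4% and 25% against 32.4%. GAAAC (IRF4) was in 65.9% and 66.7% against 72.6%, TGANTCA (AP-1) in 12.6% and 14.3% against 15.95%, and ATGCAAAT (Oct-2) in 1.81% and 7.14% against 5.86%. Shifted regions were also narrower, with median widths of 413 and 342 bp against 510 bp. Among regions of at least 5 RPPM the Oct-2 letters were in 2.01% of higher shifts (median width 548 bp) against 7.34% of all regions (685 bp). Of the 19 called regions, 52.6% held the E2A letters, 84.2% the IRF4, 47.4% the PU.1, 5.26% the AP-1 and 0% the Oct-2 letters, shares that rest on few regions. The Klf13 region held 23 CpGs (3.56 per 100 bp), the Anks1 promoter 30 and the Camkk2 promoter 20, whereas the 585 bp AW112010 promoter held 2.

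No region at the genes of any list passed the limma threshold, and the lists were described by direction. Of 26 germinal center genes, the nearest-start region was lower in KO at 20 and higher at 6, with a median log2 difference of -0.15 against -0.039 over all promoters. At 6 of them all KO libraries lay below all C and at 0 above, beside 7.99% and 5.03% of all promoters, among them Cxcr4, the dark zone chemokine receptor (107 and 110 RPPM in C, 69.4, 87.2, 102 and 93.0 RPPM in KO, adjusted p = 0.22), and Tnfrsf13c, the BAFF receptor (27.7 and 22.0 against 18.7, 15.9, 20.2 and 20.3 RPPM, adjusted p = 0.34). The largest difference was at Mef2c, a B cell transcription factor gene, at 9.24 and 7.49 RPPM in C and 4.41, 8.91, 4.38 and 1.40 RPPM in KO, where the groups overlapped. Over all 333 regions nearest to these genes 12.9% lay below and 2.10% above, against 5.52% and 7.45% of all regions. For their 83 regions of at least 20 RPPM the shares were 24.1% and 1.205%, against 10.2% and 3.91% of all regions that strong. The 38 such regions of naive B cell genes had 18.4% and 2.63%, so a low share above was not particular to the germinal center list.

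The naive and follicular list was split in direction at its nearest-start regions. Of its 19 nearest-start regions 9 were higher and 10 lower. Cd38, a surface enzyme that germinal center B cells lose in mice, stood at 14.1 and 11.7 RPPM in C and 22.0, 18.5, 18.4 and 14.7 RPPM in KO (log2 difference 0.47 ± 0.19, unadjusted p = 0.020, adjusted p = 0.32). Tcf7, which encodes the lymphoid factor TCF1, stood at 4.84 and 6.09 RPPM in C and 8.81, 11.5, 7.45 and 6.99 RPPM in KO (adjusted p = 0.31). In both, the KO libraries lay above the C libraries by a small margin. Ccr6, the chemokine receptor, stood at 13.6 and 3.75 RPPM in C and 13.2, 10.8, 10.5 and 11.2 RPPM in KO, so that C M1 alone was low. Over the list's 346 regions, 8 were shifted higher (2.31%, against 1.26% of all) and 1 lower.

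The other B cell lists held no call either. Of 22 plasma cell genes 11 were higher and 11 lower. Slamf7, a surface receptor of plasma cells, stood at 69.1 and 70.3 RPPM in C and 25.3, 50.3, 58.7 and 69.2 RPPM in KO, low only in part of the KO libraries. Of 19 B lineage transcription factors 15 were lower (median -0.12), with Tcf3, which encodes E2A, at 58.1 and 65.6 RPPM in C and 56.2, 49.6, 48.2 and 44.0 RPPM in KO (-0.32 ± 0.10, unadjusted p = 0.0041, adjusted p = 0.20). Of 19 activation and signaling genes, named in the study from these mice, 12 were lower. Nfatc1, a calcium-dependent transcription factor, stood at 60.7 and 49.2 RPPM in C and 36.3, 40.7, 45.6 and 47.5 RPPM in KO, and Il10ra, the interleukin 10 receptor, at 4.84 and 5.15 against 7.71, 8.27, 7.45 and 7.69 RPPM. At both genes the groups did not overlap, and adjusted p was 0.22 and 0.33. Over this list KO lay above C at 2 of 19 and below at 3, beside 5.03% and 7.99% of all promoters.

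Lists of methylation enzymes, of genes that methylation commonly silences and of developmental regulators also held no call. Of 17 enzymes of methylation and demethylation, 6 were higher and 11 lower. Tet1, which oxidizes methylcytosine, stood at 5.72 and 4.68 RPPM in C and 9.91, 9.55, 10.96 and 6.99 RPPM in KO (0.73 ± 0.23, unadjusted p = 0.0034, adjusted p = 0.18). Only 11 of 29 germline genes had a nearest region, of which 4 were higher and 7 lower, and the groups overlapped at each. Of 22 imprinted genes 16 were lower (median -0.20), and Cdkn1c, a growth inhibitor expressed from 1 parental allele, stood at 25.5 and 29.5 RPPM in C and 14.3, 21.6, 22.8 and 19.6 RPPM in KO (adjusted p = 0.27). Peg10, a retrotransposon-derived imprinted gene, stood at 15.4 and 15.5 RPPM in C and 6.61, 12.1, 9.21 and 14.7 RPPM in KO (adjusted p = 0.45). All KO libraries lay below all C at 6 of the 22 and above at 1, beside 7.99% and 5.03% of all promoters. A count of 6 below was thus not particular to the germinal center list. Of 23 developmental transcription factor genes 10 were higher and 13 lower. At 4 of these all KO libraries lay below all C and at 0 above, beside the same 7.99% and 5.03% of all promoters. Meis1 stood at 7.48 and 7.96 RPPM in C and 3.30, 5.73, 2.19 and 5.59 RPPM in KO (adjusted p = 0.40). Across the B cell and methylation lists medians lay below the -0.039 of all promoters, apart from the plasma cell list at -0.0028 and the naive list at -0.024.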

How the data were processed

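The members and gene lists were chosen with earlier results of these data known. The authors aligned ATAC-seq reads to mm9 with Bowtie, called peaks per sample with MACS2, merged them across samples and deposited RPPM, a per-million value (RPM) scaled to the reads in peaks of each library. The submitters' processing notes give Bowtie 1.1.1, Picard 1.127, MACS2 2.1.0.20140616 and edgeR 3.12.1, and the versions of Bowtie and MACS2 in the methods differ. Their fold change, p and FDR columns were not used. 1 BMPC KO sample had no values and was not analysed here. Dividing each deposited RPM value by that of 1 read gave whole reads for 100% of values within 0.01 read.

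The main test was limma 3.58.1 with a variance trend on log2(RPPM + 1) of 16 libraries in 6 groups, with Benjamini-Hochberg adjustment over 66177 regions. edgeR 4.0.16, DESeq2 1.42.0 and voom used the recovered reads. The limma and edgeR fits were checked on simulated data that had the same count dispersion in every library. That check could not address the pooled fit's assumption of 1 spread for all cell types. Single values were compared by exact permutation (scipy 1.17.1). Except in the fit of GCB alone, p-values of single regions measure the spread between libraries within all 6 groups. Of these libraries only those of GCB were pools of mice. Permutation p-values measure the spread between the pooled GCB libraries. Floors of 3 reads cover counting error only.

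Class was the first that applied of promoter, 5′ UTR, exon, intron and distance outside genes, from the authors' annotation. Sequence in mm9 was found for 65893 regions. Named regions were all limma calls, the 5 lower shifts of at least 5 RPPM with the smallest p, the deleted genes and, per gene list, up to 3 of the largest differences at nearest-start regions of at least 5 RPPM. Gcsam, Bcl6, Ccr7, Cd2, Cd3d, Cd3e, Cd4, Cd247, Lat, Eomes, Flt3, Csf3r, Itgam, Cebpb, Cxcr4, Tex2, Rnf150, Plekhg5, the second Crtc3 region, the size-threshold regions, the genes with most shifts and the 5 largest BMPC regions were chosen after their values were seen. Alternatives for regions called in BMPC and for the split by accessibility were also chosen after seeing the data. Some genes of the lists are counted but not reported by name.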

Additional observations from a re-analysis of the deposited data

Results flagged for a closer look

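In 67 comparisons of the 4 KO libraries, 3 had a lone library far from the rest, about what 1 in 20 groups gives by chance. At the N4bp2 exon the KO F1 library, the shallowest, stood at 8.81 RPPM, and the other KO libraries at 4.46, 4.38 and 4.19 RPPM. The share of reads within 10 kb outside genes, which includes the mitochondrial regions, was 16.6% in KO F3 and at least 18.8% in the other KO libraries, and its mitochondrial share was 7.43%. The chromosome X share was 1.64% in KO M1, the male pool, and at least 1.89% in the 3 female KO pools, while it was 1.88% and 1.71% in the female and the male C pool.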

How the results depend on the processing

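The count of 19 higher calls outside the window was 4 with a pseudocount of 5 RPPM, 10 among regions of at least 5 RPPM, 1 in a fit of GCB alone, 0 without a variance trend, 102 after thinning, 0 by the quasi-likelihood test, DESeq2 or voom, 10 by the likelihood ratio test, 7 with GC centring and 108 at an adjusted p of 0.05. The 0 lower calls became 1 with a pseudocount of 0.1 RPPM, quantile normalization or the likelihood ratio test, 2 after thinning and 4 at an adjusted p of 0.05. Leaving out 1 library gave 1 to 59 higher and 0 to 2 lower calls, with 59 without C F2 (5 of the 19 among them), 1 without C M1 (0 of the 19) and 11 without KO M1 (10 of the 19). A lone C library was assumed to vary like the other groups. The balance at unadjusted p under 0.05, 63.1% higher, was 50.1% with TMM scaling, 51.0% with quantile normalization, 50.5% with GC centring and 38.9% in DESeq2.

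Higher shifts (831) numbered 1786 and lower shifts (168) 605 with a pseudocount of 0.1 RPPM, 12 and 0 with 5 RPPM, 1682 and 460 after thinning, 201 and 29 at 5 RPPM and over, and 605 and 449 after quantile normalization. Leaving out 1 library gave 898 to 3636 and 247 to 874, of which 3636 and 476 without C F2, 1438 and 874 without C M1, 1400 and 324 without KO F3, 368 lower without KO F2 and 311 lower without KO M1. The 5′ UTR mean turned to -0.024 with a pseudocount of 0.1 RPPM, -0.062 with quantile normalization and -0.037 with TMM scaling, and the mean within 10 kb of genes to -0.011 with quantile normalization. Leaving out 1 library gave -0.052 to 0.067 in 5′ UTRs, -0.0045 to 0.17 in exons, -0.0042 to 0.18 in introns, -0.017 to 0.16 within 10 kb and -0.0036 to 0.20 at 10 to 100 kb. Interactions, 0 in each direction, were 1 lower against nB and 15 higher and 67 lower against BMPC by the likelihood ratio test, and 1 lower against BMPC with quantile normalization. The cause of these changes was not tested.

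Libraries of both genotypes carry the names F2 and M1, which mark different mice. Deviations of same-named libraries from group means correlated at 0.036 and 0.064. With the pool name as a replicate block, 104 higher and 28 lower regions were called, and 68 and 37 with GC centring and the replicate block. KO F1 and KO F3 share their names with no C library and add nothing to the blocked difference. It rests on KO F2 and KO M1 against C F2 and C M1 only, so these counts do not compare all KO libraries with C. With 2 C libraries and 907959 to 2280954 reads per library, small differences at regions with few reads were not detectable.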
